A study of Homo sapiens with 12 samples.

Results

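The YEATS2 knock-down in cells expressing TAZ-CAMTA1 (TC) was examined in 4 RNA sequencing libraries, chosen by their titles from the 12 libraries of the series. All of them came from SW872, a human liposarcoma line, made to express the TC fusion stably. Of these libraries, 2 carried a non-targeting control hairpin (TC shNT) and 2 a hairpin against YEATS2 (TC shYEATS2), and the comparison asks what TC cells lose or gain in gene expression when YEATS2 is reduced. The lines were pools of stably transduced cells rather than single clones, and a liposarcoma line stands in here for a vascular sarcoma that has no cell line of its own. SW872 cells expressing the YAP-TFE3 (YT) fusion carried a non-targeting hairpin (YT shNT) or a hairpin against YEATS2 (YT shYEATS2). They are drawn on to test where the response in TC cells differed. The remaining libraries carried a hairpin against ZZZ3 in either line (TC shZZZ3 and YT shZZZ3). Values of TC shZZZ3 are set beside those of TC shYEATS2, and all 12 libraries enter the estimate of spread. The study describes its knock-down libraries as biological duplicates. It reports separate transduction for the triplicates of its expression constructs, and does not say whether the hairpin duplicates were also transduced separately. A p value here rests on the spread between duplicates, estimated over all 6 groups of the series. Values are given throughout in the order replicate 1 and replicate 2.

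TAZ-CAMTA1 joins the TEAD-binding end of TAZ to the transactivating end of CAMTA1 and drives expression of TAZ target genes from the nucleus. YEATS2 is the scaffold subunit of the ATAC complex, which carries a histone acetyltransferase (KAT2A or KAT2B, and KAT14), and its YEATS domain reads acetylated lysine 27 of histone H3. ATAC shares its acetyltransferase with the SAGA complex, and subunits such as ZZZ3 belong to ATAC alone.

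A total of 5 hairpins against YEATS2 is listed for the study, and the labels do not say which of them the sequenced lines carried. They are shown because the target site decides what part of the transcript a knock-down acts on. Each line below is the 21-base stretch of the YEATS2 transcript that the hairpin copies, and the capitals mark the bases that pair with bases 2 to 8 (the seed) of the antisense guide strand.
Hairpin 1: cgtcagagttcaaGTTCATTt
Hairpin 2: cctaactacaaacAGCAAGAa
Hairpin 3: ccagtcagaaatcTGTTCTAt
Hairpin 4: gcgagctacgaacAATGCTAa
Hairpin 5: ataacagcaatatGGATATAg
On the GRCh38 assembly (GENCODE release 44, plus strand) all 5 matched the canonical YEATS2 transcript, which has 31 exons. Hairpin 5 lay in exon 5 (chr3:183722063-183722083), hairpin 1 in exon 8 (chr3:183736763-183736783) and hairpin 2 in exon 17 (chr3:183773706-183773726). Hairpin 4 crossed the junction of exons 17 and 18 (from chr3:183773775 to chr3:183775915), and these 4 sites were coding. Hairpin 3 lay in the 3′ untranslated region, in exon 31 (chr3:183811777-183811797).

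The depth of the 4 libraries was 27596240 and 19420504 counts in TC shNT and 28038851 and 19206236 counts in TC shYEATS2, with between 4.59% and 5.75% of counts on mitochondrial genes. Mesenchymal markers were high in each library (a summed level of 12180 to 14230 CPM, TMM-normalised counts scaled to a common library size, over 10 genes). Of 8 adipocyte markers, PPARG and LPL were detected in the 4 libraries, while FABP4, ADIPOQ, LEP and CIDEC had at most 1 count in any of them. Of 8 leukocyte markers, PTPRC, MS4A1 and TYROBP had 0 counts, and the summed level of the 4 tested was 16.3 and 12.8 CPM in TC shNT and 7.97 and 6.93 CPM in TC shYEATS2. Most of it was CD4, at 14.6 and 11 CPM in TC shNT and at 5.78 and 5.58 CPM in TC shYEATS2 (edgeR adjusted p 0.199), which was called lower with the GC trend removed (0.0185).

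The libraries of a pair were not equally close. Over 13258 genes averaging at least 50 counts, the robust spread of the log2 ratio of replicate 1 to replicate 2 was 0.708 in TC shNT and 0.366 in TC shYEATS2, against 0.183 in TC shZZZ3, the TC line with a hairpin against ZZZ3. Most of the spread in TC shNT followed the GC content of the genes, with a Spearman correlation across genes of 0.832 in TC shNT and 0.358 in TC shYEATS2. These correlations run across genes and are given as a description, without a p. When the GC trend of each library was removed, the spread was 0.326 in TC shNT and 0.329 in TC shYEATS2. Even so the tails differed: 0.996% of genes lay more than 1 log2 unit apart in TC shNT and 4.77% in TC shYEATS2. Each comparison below is therefore given with counts as deposited and, where the call changes, with the GC trend removed.

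**Figure D1:**
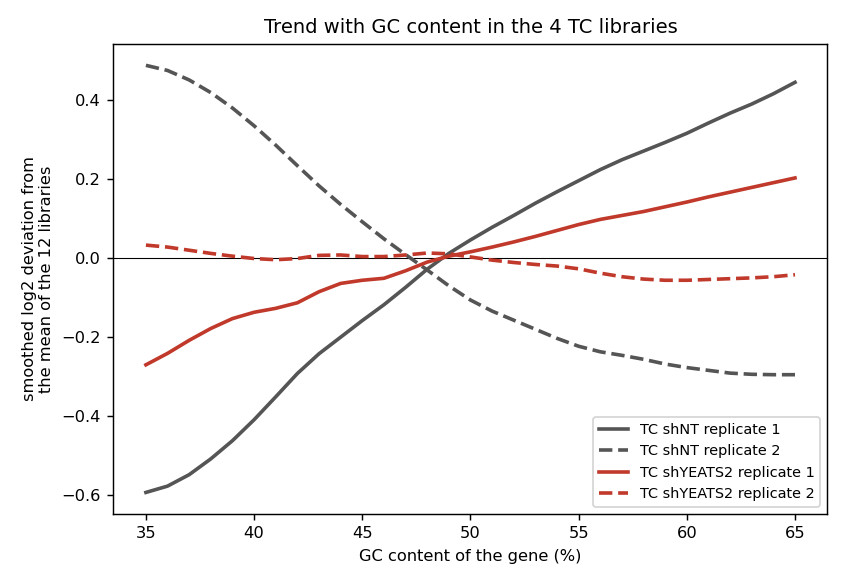
Smoothed deviation of log2 CPM from the mean of the 12 libraries (vertical axis) against the GC content of the gene in percent (horizontal axis), with 1 line for each TC shNT and TC shYEATS2 library. At a GC content of 40% the TC shNT libraries sit at -0.41 and 0.33 and at 60% at 0.32 and -0.28, whereas the TC shYEATS2 libraries sit at -0.14 and 0.00 and at 0.14 and -0.06.

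YEATS2 itself was lower in both knock-down libraries. YEATS2 (chromosome 3, 183697797 to 183812624) was at 113 and 123 CPM in TC shNT and at 45.5 and 35.1 CPM in TC shYEATS2. The pairs did not overlap, and the log2 fold change was -1.54 (SE 0.177, edgeR quasi-likelihood test, adjusted p 0.0138). In the YT line the gene was at 115 and 117 CPM in YT shNT and at 33.9 and 38.5 CPM in YT shYEATS2. The fall was -1.68 there, and the difference between the lines did not pass (interaction -0.13, SE 0.245, edgeR adjusted p 0.781). Fitting only the 3 TC groups (edgeR adjusted p 0.224) or only the 4 libraries (0.150) ended the call, with log2 fold changes of -1.56 and -1.57.

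None of the other 10 ATAC subunits was called by edgeR or DESeq2, and none had an unadjusted p under 0.05. Over all genes tested 0.0434% were called by edgeR and 0.635% by DESeq2, so a short list, here or below, says little by having no call. ZZZ3 was at 25.6 and 60.4 CPM in TC shNT and at 35.8 and 47.3 CPM in TC shYEATS2, and the control pair enclosed the knock-down pair. KAT14, the second acetyltransferase of the complex, was at 42.8 and 37.9 CPM in TC shNT and at 46.8 and 43.3 CPM in TC shYEATS2 (log2 fold change 0.16, not called). The median log2 fold change over the 11 ATAC subunits was 0.03, beside -0.01 over all genes tested, and 0.12 without TC shNT replicate 1 and 0.13 without TC shYEATS2 replicate 2. None of the 12 subunits particular to SAGA and none of the 3 other YEATS-domain readers listed was called or had an unadjusted p under 0.05.

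Few genes passed in TC shYEATS2. Of 18415 genes tested, 8 were called (0.0434%), 6 higher (0.0326%) and 2 lower (0.0109%), with 927 genes at an unadjusted p under 0.05. With the GC trend removed the count was 67 (0.364%), of which 47 were higher (0.255%) and 20 lower (0.109%), and DESeq2 called 117 (0.635%), of which 93 were higher (0.505%) and 24 lower (0.13%). All 8 were among both of these sets, and 56 genes were shared by the 67 and the 117. The count rested on the control pair: leaving out either TC shNT library brought it to 2. It became 68 without TC shYEATS2 replicate 1 and 77 without TC shYEATS2 replicate 2, where the remaining library is assumed to vary as the other groups do.

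The called genes other than YEATS2 were a chemokine, a peptide hormone, a prohormone convertase, a phosphatase, a cell-surface proteoglycan and a pair of non-coding RNAs. CXCL12 (chromosome 10, 44370165 to 44386493) codes for the chemokine that binds the receptor CXCR4. It was at 9.73 and 10.1 CPM in TC shNT and at 29.4 and 41.1 CPM in TC shYEATS2. Both knock-down libraries lay well above a tight control pair, and the log2 fold change was 1.82 (SE 0.212, edgeR adjusted p 0.0138). EDN3 (chromosome 20, 59300443 to 59325992) codes for endothelin 3, a peptide ligand of the endothelin receptors. It was at 1.56 and 1.15 CPM in TC shNT and at 6.73 and 13.4 CPM in TC shYEATS2. Its log2 fold change was 2.80 (SE 0.347, edgeR adjusted p 0.0169), with the higher value in replicate 2.

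PCSK2 (chromosome 20, 17226107 to 17484578) codes for a convertase that cleaves prohormones in secretory granules. It had 0 and 3 counts in TC shNT and 115 and 71 counts in TC shYEATS2, where it stood at 4.05 and 3.57 CPM. The ratio of the summed, scaled counts was 60.5, with an exact 95% interval of 20.4 to 296 that covers counting error only (edgeR adjusted p 0.0157). PPM1H (chromosome 12, 62643994 to 62935150), a protein phosphatase gene, was at 1.53 and 1.48 CPM in TC shNT and at 5.25 and 7.58 CPM in TC shYEATS2. Its rise on the log2 scale was 2.02 (SE 0.257, edgeR adjusted p 0.0169).

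SDC2 (chromosome 8, 96493813 to 96611790) codes for syndecan 2, a heparan sulfate proteoglycan of the cell surface, and was the most abundant of the 6 genes that rose. It was at 54.7 and 56.6 CPM in TC shNT and at 132 and 115 CPM in TC shYEATS2, and the fitted change was 1.15 log2 units (SE 0.166, edgeR adjusted p 0.0441). The lncRNA LINC03018 (chromosome 8, 57746129 to 57750199) was at 2.52 and 2.06 CPM in TC shNT and at 8.21 and 7.28 CPM in TC shYEATS2 (log2 fold change 1.72, SE 0.236, edgeR adjusted p 0.0310). The lncRNA LINC02582 (chromosome 18, 73324941 to 73349879) was the only gene called lower beside YEATS2. It was at 3.97 and 4.78 CPM in TC shNT and at 0.352 and 0.502 CPM in TC shYEATS2, or 10 counts in each, and the fitted change was -3.13 log2 units (SE 0.328, edgeR adjusted p 0.0138).

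Of these 8 calls, that of YEATS2 held when any 1 of the 4 libraries was left out. The calls of CXCL12, PPM1H, EDN3, LINC03018 and SDC2 were each lost on leaving out either TC shNT library, with edgeR adjusted p values of at most 0.109, 0.160, 0.157, 0.222 and 0.178. PCSK2 was lost without TC shNT replicate 1 (0.109), LINC02582 without TC shNT replicate 2 (0.0575), and SDC2 also without TC shYEATS2 replicate 1. No direction changed for any of the 8 under any alternative run.

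**Figure D2:**
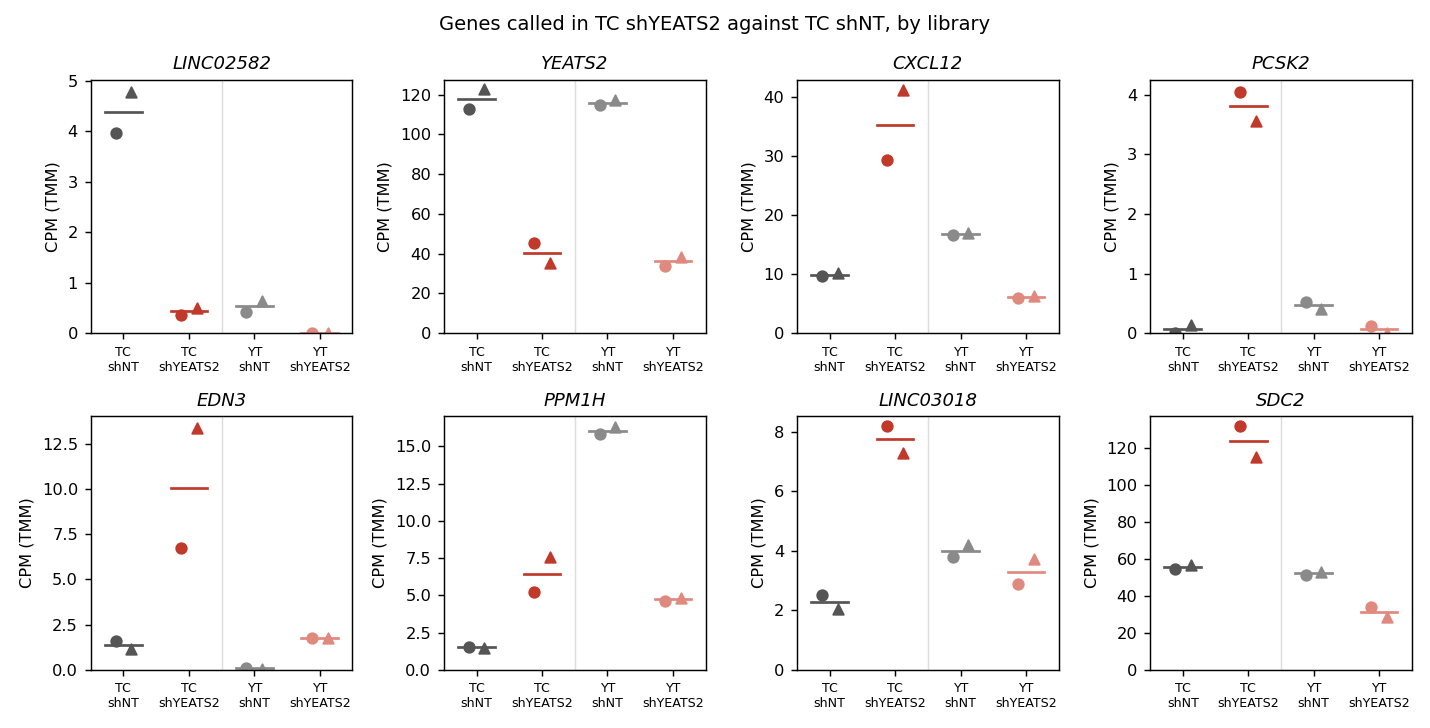
TMM-normalised CPM (linear vertical axis from 0) of the 8 called genes in each TC and YT library with the control or the YEATS2 hairpin. Circles are replicate 1, triangles replicate 2 and bars the mean of the pair; in TC the shYEATS2 points lie apart from the shNT points in every panel, and of the 6 genes higher there all but EDN3 have lower points in YT shYEATS2 than in YT shNT.

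The response to the YEATS2 hairpin was tested between the lines, with the difference taken as YT minus TC. Whether TC and YT carried the same hairpin against YEATS2 is not stated, so line and hairpin cannot be told apart in it. The interaction called 1725 genes (9.37%), 650 higher (3.53%) and 1075 lower (5.84%), and 3797 with the GC trend removed. It called 882, 853, 787 and 832 genes without YT shNT replicates 1 and 2 and YT shYEATS2 replicates 1 and 2 in turn, and 3023 without TC shNT replicate 2. CXCL12 was at 16.5 and 17 CPM in YT shNT and at 5.99 and 6.19 CPM in YT shYEATS2, so it fell in YT and rose in TC (interaction -3.27, SE 0.301, edgeR adjusted p 1.32e-04). PPM1H went from 15.8 and 16.3 CPM to 4.62 and 4.85 CPM in YT (interaction -3.77, SE 0.354, edgeR adjusted p 1.43e-04). SDC2 went from 51.2 and 53.0 CPM to 34 and 28.8 CPM in YT (interaction -1.88, SE 0.235, edgeR adjusted p 6.11e-04). These 3 genes had opposite directions in the lines. They were picked by their change in TC, which is part of the interaction, so their interaction tests are not independent of that choice. LINC03018 did not pass in YT (log2 fold change -0.28, edgeR adjusted p 0.428), and its interaction was -1.996 (SE 0.334, edgeR adjusted p 0.00332).

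EDN3 behaved otherwise. It was at 0.106 and 0.0575 CPM in YT shNT and at 1.75 and 1.76 CPM in YT shYEATS2, so that it was higher in both knock-downs. The interaction did not pass (0.63, SE 0.331, edgeR adjusted p 0.277). Its size depends on the prior count, since the gene had very few counts in YT shNT, and an equal change in the lines is not shown. LINC02582 was at 0.422 and 0.633 CPM in YT shNT and had 0 counts in both YT shYEATS2 libraries.

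The TC shZZZ3 libraries share their controls with TC shYEATS2, so the values are only set side by side. In TC shZZZ3 CXCL12 was at 29.9 and 29 CPM, SDC2 at 129 and 126 CPM and LINC03018 at 12.3 and 13 CPM, all above both controls. EDN3 was at 2.40 and 2.14 CPM, PPM1H at 2.68 and 2.89 CPM and PCSK2 at 0.731 and 0.588 CPM, between the controls and TC shYEATS2. LINC02582 was at 3.09 and 3.80 CPM, below both controls and above both TC shYEATS2 libraries.

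Among receptors and ligands of the chemokine and endothelin systems, 8 of 10 listed genes were tested, and CXCL12 and EDN3 were those called. CXCR4, the receptor of CXCL12, was at 0.114 and 0.382 CPM in TC shNT and at 4.90 and 0.151 CPM in TC shYEATS2, high in replicate 1 only (log2 fold change 3.04, edgeR adjusted p 0.552). EDNRB was at 22.8 and 32.4 CPM in TC shNT and at 26.6 and 20.4 CPM in TC shYEATS2, with overlapping pairs. ECE1, which codes for an enzyme that matures endothelins, was at 180 and 140 CPM in TC shNT and at 255 and 219 CPM in TC shYEATS2 (log2 fold change 0.57, edgeR adjusted p 0.665).

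The largest differences that did not pass by edgeR were mostly towards higher values, with an uneven pair of knock-down libraries. By rule these are genes averaging at least 50 counts, with an unadjusted p under 0.05 and pairs that did not overlap. The whole rule was met by 490 genes. Pairs that did not overlap, taken alone, were seen in 20.2% of all genes tested (11.4% higher and 8.83% lower). CHGA, which codes for chromogranin A of secretory granules, was at 0.420 and 0.382 CPM in TC shNT and at 27.8 and 3.47 CPM in TC shYEATS2 (log2 fold change 5.01, SE 0.782, edgeR adjusted p 0.0632). LRP2, which codes for the endocytic receptor megalin, was at 0.992 and 1.10 CPM in TC shNT and at 30.7 and 5.48 CPM in TC shYEATS2 (4.01, SE 0.639, edgeR adjusted p 0.0632). MPPED2 was at 0.114 and 0.191 CPM in TC shNT and at 8.74 and 1.21 CPM in TC shYEATS2 (4.43, edgeR adjusted p 0.0894).

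SLPI, a secreted protease inhibitor gene, was at 3.28 and 2.29 CPM in TC shNT and at 35.5 and 11.6 CPM in TC shYEATS2 (3.04, edgeR adjusted p 0.0662). RSAD2, an interferon-stimulated gene, was at 0.649 and 0.812 CPM in TC shNT and at 11.3 and 2.76 CPM in TC shYEATS2 (3.14, edgeR adjusted p 0.0915). FREM1, an extracellular matrix gene, was at 8.81 and 12 CPM in TC shNT and at 150 and 17.9 CPM in TC shYEATS2. The aldo-keto reductase gene AKR1B10 was at 17.9 and 17.2 CPM in TC shNT and at 187 and 31.7 CPM in TC shYEATS2. In all 7 of these genes, CHGA to AKR1B10, replicate 1 held the higher value, and without it FREM1 and AKR1B10 had log2 fold changes of 0.76 and 0.83 in place of 3.003 and 2.64. MYH8, a myosin heavy chain gene whose close paralogs may share reads, was at 0.305 and 0.430 CPM in TC shNT and at 6.73 and 0.854 CPM in TC shYEATS2. SDK2 was the exception in the other direction, at 0.610 and 1.15 CPM in TC shNT and at 3.21 and 8.34 CPM in TC shYEATS2. With the GC trend removed CHGA, LRP2, MPPED2, SLPI and RSAD2 were called (edgeR adjusted p 0.0220, 0.0302, 0.0472, 0.0185 and 0.0493).

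The differences towards lower values that did not pass by edgeR were smaller and more even between the knock-down libraries. SLC14A1, a urea transporter gene, was at 35.3 and 39.5 CPM in TC shNT and at 8.21 and 15.9 CPM in TC shYEATS2 (log2 fold change -1.63, SE 0.280, edgeR adjusted p 0.0766). PYGM, the glycogen phosphorylase gene of muscle, was at 10.6 and 6.74 CPM in TC shNT and at 2.19 and 2.56 CPM in TC shYEATS2 (-1.84, edgeR adjusted p 0.117). PI15, LPAR6, MXRA8, ADA2 and FNDC1 had log2 fold changes between -2.51 and -1.49. LPAR6 lies within an intron of RB1, so its counts can include reads of that gene. SLC14A1, PYGM and PI15 were called with the GC trend removed (edgeR adjusted p 0.0185, 0.0185 and 0.0209).

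Genes of the integrated stress response had the largest median change of the 27 lists examined. The lists were chosen with earlier results of these data known, so this rank and the counts of members are descriptions. This response slows general translation when amino acids are scarce or proteins misfold, and it raises the transcription factor ATF4, which induces genes of amino acid supply and cell death. Of 20 listed genes, all tested, 20 had a log2 fold change above 0, with a median of 0.98 beside -0.01 over all genes. The pairs did not overlap in 14 of the 20, each higher in TC shYEATS2, where 11.4% of all genes were so. FGF21, at 1 count at most in each TC library, is among the 14. No gene of the list was called by the main test, with 12 at an unadjusted p under 0.05. With the GC trend removed 1 was called, and DESeq2 called 7.

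The values were higher in replicate 2. The median change from the mean of TC shNT was 0.65 in replicate 1 and 1.26 in replicate 2, and 18 of the 20 genes were higher in replicate 2 than in replicate 1. DDIT3, which codes for the death-promoting factor CHOP, was at 13.7 and 12.5 CPM in TC shNT and at 26.5 and 49.9 CPM in TC shYEATS2. Its log2 fold change was 1.53 (SE 0.287, edgeR adjusted p 0.115), and the adjusted p was 0.0417 with the GC trend removed. CHAC1, which codes for an enzyme that degrades glutathione, was at 6.71 and 5.88 CPM in TC shNT and at 17.5 and 27.2 CPM in TC shYEATS2 (1.81, SE 0.457, edgeR adjusted p 0.287).

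TRIB3, a pseudokinase gene induced by ATF4 and CHOP, was at 123 and 91.7 CPM in TC shNT and at 186 and 317 CPM in TC shYEATS2 (1.23, edgeR adjusted p 0.295). ASNS, the asparagine synthetase gene, was at 1.26 and 2.77 CPM in TC shNT and at 3.49 and 5.98 CPM in TC shYEATS2 (1.20, edgeR adjusted p 0.746). INHBE was the most uneven of the list, at 1.91 and 2.29 CPM in TC shNT and at 3.84 and 21.8 CPM in TC shYEATS2. ATF4 itself, whose product is controlled largely by translation, was at 400 and 323 CPM in TC shNT and at 385 and 499 CPM in TC shYEATS2, with overlapping pairs.

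In YT the same 20 genes went the other way. All 20 had a log2 fold change below 0 in YT shYEATS2, 16 of them called lower, as were 11.1% of all genes, and the median was -2.09. The interaction was called for 15 of the 20, each lower in YT, where 5.84% of all genes were so. For DDIT3 the interaction was -3.64 (edgeR adjusted p 3.78e-04), for CHAC1 -3.78 (0.00384), for TRIB3 -2.98 (0.00186) and for ASNS -3.41 (0.00601). Each change is taken from the control of its own line, and control levels can differ between the lines. INHBE was at 75.8 and 93.9 CPM in YT shNT and at 3.41 and 2.79 CPM in YT shYEATS2, beside 1.91 and 2.29 CPM in TC shNT. Control levels of the other genes are not compared here. In bulk RNA a change in the share of responding cells and a change per cell cannot be told apart.

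**Figure D3:**
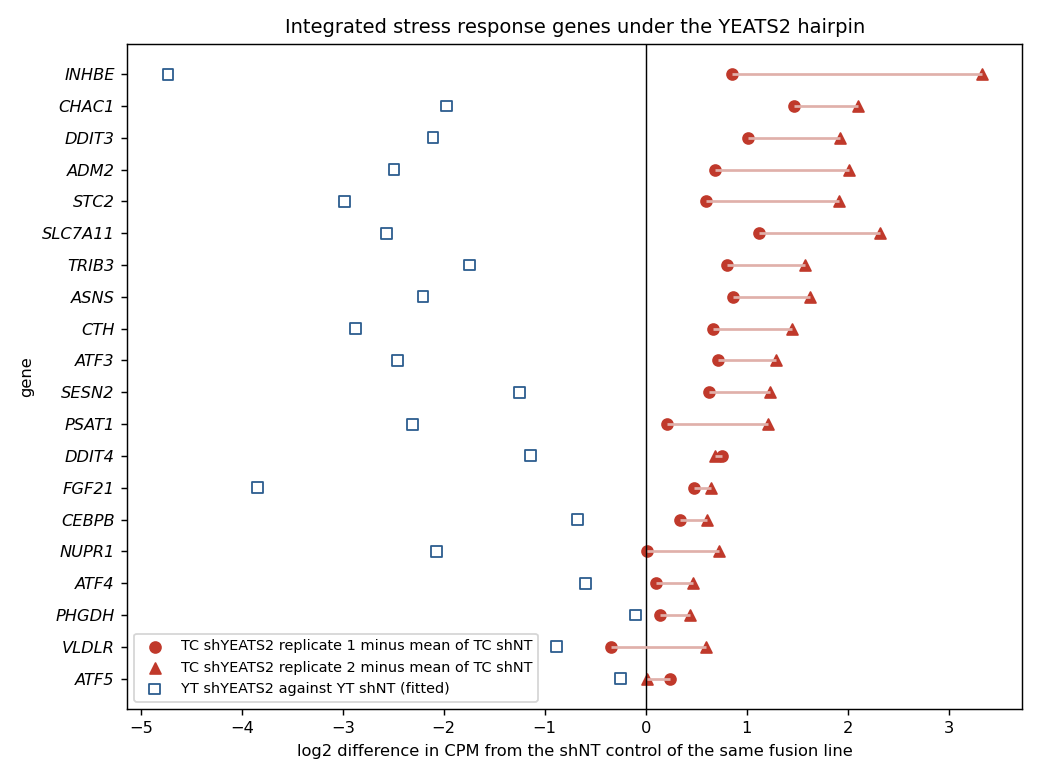
Log2 difference in CPM from the shNT control of the same line (horizontal axis) for the 20 integrated stress response genes (vertical axis). Red circles and triangles are TC shYEATS2 replicates 1 and 2 and open squares the fitted change in YT shYEATS2; the squares are all below 0, and 19 of 20 circles and 20 of 20 triangles are above it.

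The promoters of these genes were read because ATF4 and its partners bind a composite element with the core TGATGNAA. RefSeq promoter sequences (GRCh38.p14, 300 bases around the start of the gene) were matched for 17 of the 20 genes, and on either strand 4 of them held the core (ASNS, ATF3, CHAC1 and FGF21), or 23.5%, as did 3.62% of the 35116 promoters read. A pair of them is shown, with the core in capitals.
ASNS, chr7:97872359-97872658, minus strand: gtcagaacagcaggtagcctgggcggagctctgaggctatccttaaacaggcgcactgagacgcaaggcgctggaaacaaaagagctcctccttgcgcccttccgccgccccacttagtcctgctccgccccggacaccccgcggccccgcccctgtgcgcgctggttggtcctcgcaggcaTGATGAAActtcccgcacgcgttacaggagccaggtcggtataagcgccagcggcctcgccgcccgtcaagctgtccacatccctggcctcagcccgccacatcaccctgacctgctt
CHAC1, chr15:40953221-40953520, plus strand: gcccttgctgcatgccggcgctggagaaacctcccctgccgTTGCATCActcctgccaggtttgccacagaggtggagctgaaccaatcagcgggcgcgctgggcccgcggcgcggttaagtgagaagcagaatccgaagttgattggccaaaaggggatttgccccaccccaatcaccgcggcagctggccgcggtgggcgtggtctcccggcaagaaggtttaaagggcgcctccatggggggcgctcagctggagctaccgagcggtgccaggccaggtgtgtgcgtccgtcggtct
In ASNS the core lay 68 bases before the start, and in CHAC1 it lay 209 bases before it on the opposite strand. A match of letters is a description and not a binding site. The genes were listed for being part of this response, so their higher share says nothing about the libraries studied here.

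Of 24 targets of YAP and TAZ tested, which the fusion acts on, 0 were called by edgeR and 0 by DESeq2. Over all genes tested 0.0434% and 0.635% were called, so this does not set the list apart. An unadjusted p under 0.05 was seen in 4 of the 24, beside 927 of all 18415 genes. The median log2 fold change was 0.18, and 19 of the 24 lay above 0, beside 8855 of all genes. The median was 0.33 in replicate 1 and 0.04 in replicate 2. CCN1 was at 46.3 and 37.6 CPM in TC shNT and at 75.7 and 41.8 CPM in TC shYEATS2, and CCN2 at 38.5 and 41.8 CPM in TC shNT and at 63.4 and 41.3 CPM in TC shYEATS2. In both genes replicate 1 was high and replicate 2 lay within the control range. AJUBA was at 117 and 104 CPM in TC shNT and at 155 and 172 CPM in TC shYEATS2 (log2 fold change 0.57, edgeR adjusted p 0.490). FJX1 was at 12.1 and 9.56 CPM in TC shNT and at 24.4 and 16.9 CPM in TC shYEATS2 (0.92, edgeR adjusted p 0.350), and was called with the GC trend removed (0.0493). The receptor tyrosine kinase gene AXL lay the other way, at 124 and 89.7 CPM in TC shNT and at 59.1 and 77.0 CPM in TC shYEATS2 (-0.65, edgeR adjusted p 0.753).

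Neither gene that makes up the fusion was called. WWTR1, which codes for TAZ, was at 174 and 216 CPM in TC shNT and at 161 and 194 CPM in TC shYEATS2, with overlapping pairs. CAMTA1 was at 72.4 and 60.1 CPM in TC shNT and at 111 and 78.2 CPM in TC shYEATS2 (0.51, edgeR adjusted p 0.874), with both knock-down libraries above both controls. Reads of the transgene and of the cell's own copies are counted together in both genes.

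Over the 6 matrix and secreted-factor lists, SDC2 and CXCL12 were the genes called by edgeR, where 0.0434% of all genes tested were called. The lists were fibrillar collagens, basement membrane, glycoproteins, proteoglycans, proteases and chemokines, with 22, 22, 29, 17, 22 and 17 genes tested. They were chosen with earlier results of these data known, so the count is a description. The genes of the fibrillar collagen chains of type I did not pass by edgeR. DESeq2 called COL1A2 lower (adjusted p 8.69e-06) and COL1A1 higher (0.0388). COL1A2 was at 85.5 and 81.9 CPM in TC shNT and at 41.5 and 32.7 CPM in TC shYEATS2 (log2 fold change -1.17, SE 0.188, edgeR adjusted p 0.0632; GC trend removed, 0.00761). COL1A1 was at 66.5 and 52.5 CPM in TC shNT and at 91.1 and 144 CPM in TC shYEATS2 (0.98, SE 0.245, edgeR adjusted p 0.280). The pairs of each gene did not overlap, and the difference between the genes was not tested.

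MATN2, a matrilin gene, was at 158 and 170 CPM in TC shNT and at 86.1 and 81.4 CPM in TC shYEATS2 (-0.97, edgeR adjusted p 0.0662; GC trend removed, 0.0119). The laminin gene LAMA1 was at 9.73 and 11.6 CPM in TC shNT and at 28.1 and 16.9 CPM in TC shYEATS2, the glypican gene GPC4 at 36.5 and 36.1 CPM in TC shNT and at 59.5 and 62.1 CPM in TC shYEATS2, and the fibulin gene FBLN5 at 16.0 and 14.5 CPM in TC shNT and at 36.5 and 19.7 CPM in TC shYEATS2. All 3 were higher in both knock-down libraries without passing by edgeR (adjusted p 0.261, 0.439 and 0.490). DESeq2 called MATN2, LAMA1 and GPC4 (adjusted p 1.86e-05, 0.0399 and 0.0448) and did not call FBLN5 (0.198). SPP1, which codes for osteopontin, was at 159 and 184 CPM in TC shNT and at 112 and 191 CPM in TC shYEATS2, and VTN at 8.85 and 5.07 CPM in TC shNT and at 10.1 and 2.91 CPM in TC shYEATS2. In both the knock-down pair enclosed the control pair.

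Growth and metabolic lists followed single libraries. The median of 20 cell cycle genes was 0.27 in replicate 1 and -0.32 in replicate 2, and that of 20 sterol synthesis genes 0.24 and -0.49. In each list 0 genes were called by edgeR or DESeq2 and 0 had an unadjusted p under 0.05. The median of 15 interferon-stimulated genes was 0.57 in replicate 1 and 0.01 in replicate 2, with 0 called by edgeR, 1 by DESeq2 and 2 at an unadjusted p under 0.05. That of 17 feedback genes of the ERK pathway was 0.01 in replicate 1 and 0.41 in replicate 2, with 0 called by edgeR or DESeq2 and 4 at an unadjusted p under 0.05. The glucose transporter gene SLC2A3 was even between the libraries, at 36.5 and 42.3 CPM in TC shNT and at 73.1 and 67.1 CPM in TC shYEATS2 (0.83, edgeR adjusted p 0.200; GC trend removed, 0.0317).

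The TC shYEATS2 libraries differed from each other more than either differed from the controls once the GC trend was removed. The root mean square log2 difference over the 13258 genes was 0.491 between them. It was 0.408 and 0.442 from replicate 1 to TC shNT replicates 1 and 2, and 0.430 and 0.378 from replicate 2 to the same libraries, and the controls lay 0.349 apart. Among 6887 genes averaging at least 50 counts whose controls lay within 0.5 log2 units, 178 were over 1 log2 unit higher in replicate 1 and 159 in replicate 2. Over 2 log2 units the counts were 34 and 14. With 1 library on each side these differences have no replicate check.

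**Figure D4:**
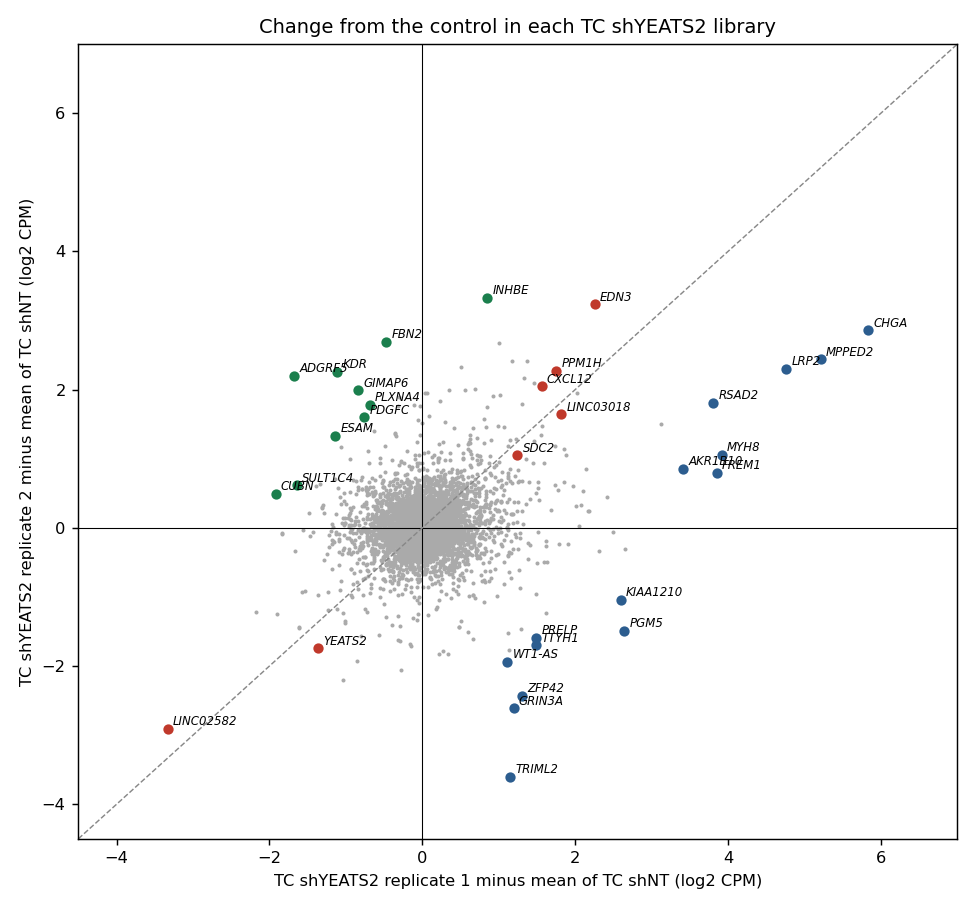
Change from the mean of TC shNT in log2 CPM for TC shYEATS2 replicate 1 (horizontal axis) and replicate 2 (vertical axis), for the 6887 genes whose controls lay close. Red points are the called genes among them (PCSK2 is not) and lie at most 0.98 log2 units from equal change (dashed line), blue points are genes higher in replicate 1 and green points genes higher in replicate 2; TRIML2 and KDR lie on opposite sides of it.

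Some genes lay on opposite sides of the controls in the knock-down libraries. TRIML2 was at 33.0 and 34.8 CPM in TC shNT and at 75.4 and 2.71 CPM in TC shYEATS2. ZFP42, the pluripotency gene REX1, lies near TRIML2 on chromosome 4 and was at 12.5 and 13.2 CPM in TC shNT and at 31.8 and 2.31 CPM in TC shYEATS2. Each gene was thus above the controls in replicate 1 and further below them in replicate 2. PGM5 was at 20.5 and 15.7 CPM in TC shNT and at 112 and 6.33 CPM in TC shYEATS2, and KIAA1210 at 5.11 and 6.07 CPM in TC shNT and at 34.1 and 2.66 CPM in TC shYEATS2. GRIN3A, TTYH1, PRELP and WT1-AS parted the same way, by 3.80, 3.19, 3.08 and 3.04 log2 units. WT1-AS overlaps WT1 on the other strand, and the use of strand in counting is not stated.

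The endothelial markers were higher in replicate 2 than in replicate 1, all but ERG. KDR, the gene of a VEGF receptor, was at 24.6 and 31.2 CPM in TC shNT and at 12.8 and 133 CPM in TC shYEATS2. CDH5 was at 33.7 and 37.1 CPM in TC shNT and at 27.6 and 91.4 CPM in TC shYEATS2, and PECAM1 at 5.61 and 4.44 CPM in TC shNT and at 4.90 and 17.1 CPM in TC shYEATS2. ERG was at 6.10 and 8.94 CPM in TC shNT and at 19.5 and 6.53 CPM in TC shYEATS2. None of the 8 markers was called by edgeR or DESeq2, and 1 had an unadjusted p under 0.05. Their summed level was 158 and 197 CPM in TC shNT and 134 and 373 CPM in TC shYEATS2, and their median change was -0.23 in replicate 1 and 1.05 in replicate 2. Outside the list, among the genes furthest apart, ADGRF5, GIMAP6 and ESAM had log2 differences of replicate 1 minus replicate 2 of -3.88, -2.83 and -2.48. They were picked by the size of this gap, as were PLXNA4, CUBN, PDGFC and SULT1C4 (-2.47, -2.41, -2.36 and -2.25), so they add nothing to the list. FBN2, the fibrillin 2 gene, was at 27.4 and 34.3 CPM in TC shNT and at 22 and 198 CPM in TC shYEATS2.

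The summed level of the 7 epithelial markers tested was 538 and 288 CPM in TC shNT and 915 and 294 CPM in TC shYEATS2, led by KRT8 and KRT18. ESRP1, a splicing factor gene of epithelial cells, was at 1.98 and 2.29 CPM in TC shNT and at 3.60 and 4.12 CPM in TC shYEATS2 (log2 fold change 0.83, edgeR adjusted p 0.481), and CDH1 was also higher in both knock-down libraries, at 0.599 CPM at most. Only these 2 of the 7 had both knock-down libraries above both controls. The median change over the 7 was 0.73 in replicate 1 and -0.39 in replicate 2. Between the TC shYEATS2 libraries whole chromosomes also lay apart after removal of the GC trend: the median log2 difference of replicate 1 minus replicate 2 was 0.27 on chromosome 21, 0.14 on chromosome 13, -0.19 on chromosome 14 and -0.20 on chromosome 5. In TC shNT the chromosome medians lay between -0.07 and 0.04. The part of these shifts in the results above was not tested.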

How the data were processed

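The libraries were stranded, poly(A)-selected and sequenced from paired ends, and per the methods the authors ran bcbio-nextgen with HISAT2 on hg38 with Ensembl annotation, and Salmon with tximport. The deposited values are whole-number counts of each gene without normalization; which of these tools gave them, and how strand and multiply mapped reads were handled, is not given in the sources used here. Of 58735 gene IDs, 99.1% were found in GENCODE release 44 (GRCh38), which gave symbols, positions and GC content.

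Testing was limited to the 18415 genes averaging 5 or more counts across the 12 libraries. Scaling was by TMM, and CPM are TMM-normalised. A negative binomial quasi-likelihood model with 6 groups was fitted to all 12 libraries with edgeR 4.0.16 under R 4.3.3 (robust, prior count of 2), with 6 residual degrees of freedom, and checked on simulated data. Two-sided p values had Benjamini-Hochberg adjustment across the whole table, and called means an adjusted p under 0.05. An SE is the size of the log2 fold change over the square root of its F statistic. The log2 fold change, and with it the SE, depends on the prior count. Total counts of 19206236 to 28038851 per library limit the precision of genes with few counts. Alternatives were DESeq2 (version 1.42.0), other scalings, count filters and sample sets, removal of a loess trend with GC content in each library (span 0.3), the replicate number as a block, and leaving out single libraries.

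Genes were named by rule: those called, those with the largest changes among genes averaging at least 50 counts with an unadjusted p under 0.05 and pairs that did not overlap, the members of 27 gene lists with the lowest p, those furthest apart between the TC shYEATS2 libraries, and genes the study names. Some genes that the rule names are not reported here. The members and lists were chosen with earlier results of these data known.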

Additional observations from a re-analysis of the deposited data

Results flagged for a closer look

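Of the 8 genes called in TC shYEATS2, 5 changed differently in YT shYEATS2 by the interaction test of edgeR. It is taken as YT minus TC with Benjamini-Hochberg adjustment over all genes. Among all genes tested 9.37% had a called interaction, and 5.84% had one towards lower values in YT. The 8 genes were picked by the TC change that is itself part of the interaction, so the count of 5 is not independent of that choice. The differences were -3.27 in CXCL12 (adjusted p 1.32e-04), -3.77 in PPM1H (1.43e-04), -1.88 in SDC2 (6.11e-04), -6.49 in PCSK2 (9.39e-04) and -1.996 in LINC03018 (0.00332), and each gene was higher in both TC shYEATS2 libraries than in both TC shNT libraries. The value of PCSK2 depends on the prior count, since the gene had few or 0 counts in TC shNT and YT shYEATS2.

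Of the 20 integrated stress response genes, 15 had such a called difference, each towards lower values in YT, as did 5.84% of all genes tested. This list was chosen with earlier results of these data known, so the count of 15 is a description. The causes of these differences were not tested.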

How the results depend on the processing

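The count of 8 called genes in TC shYEATS2 moved with most alternatives: 117 with DESeq2, 213 with no filter on low counts, 67 with the GC trend removed, 4 when the 4 libraries were fitted alone and 0 when the 3 TC groups were fitted alone (edgeR, with 663 at an unadjusted p under 0.05, against 927 in the fit of all 6 groups). It was 8 with either other scaling, 6 with a mean of at least 50 counts, and between 2 and 77 with 1 library left out. In a GC correction chosen after seeing the data, it was 365 without TC shYEATS2 replicate 1 and 624 without replicate 2. The fall of YEATS2 kept its direction throughout, from -1.76 to -1.39 with 1 library left out, and lost its call in the fits of the 3 TC groups (-1.56, edgeR adjusted p 0.224) and of the 4 libraries (-1.57, 0.150). The interaction count of 1725 was 2611 with no filter, 3797 with the GC trend removed and between 787 and 3023 with 1 library left out. The spread of TC shNT was 0.326 and that of YT shZZZ3 0.323 with the GC trend removed. Medians with 1 library left out ran from 0.03 to 0.13 for ATAC subunits, -0.19 to 0.28 for mesenchymal and -0.36 to 0.92 for endothelial markers, and 0.60 to 1.23 for the integrated stress response.

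Replicate numbers are shared in the labels, but not all groups deviated together (correlations from -0.438 to 0.898, and 0.346 between TC shNT and TC shYEATS2), so the numbers were not taken as pairs. With the replicate number as a block 28 genes were called in TC shYEATS2, and 137 with the block and the GC correction, where the interaction called 4557.

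Of 737 single-gene values over 53 named genes, 582 kept direction and side of the threshold, 24 lost and 121 gained a call, and 10 changed direction, all in ZZZ3, SPP1, CCN1, VTN and WWTR1: ZZZ3 (0.004 with the replicate block, 0.09 with GC correction and 0.095 with both). With 1 library left out ZZZ3 ran from -0.552 to 0.683, SPP1 from -0.635 to 0.138, CCN1 from -0.023 to 0.831, VTN from -1.253 to 0.505 and WWTR1 from -0.297 to 0.016, none of them called in the main fit of edgeR. The cause was not tested. With 2 libraries per group and 19206236 to 28038851 counts in each, a gene that was not called is not shown to be unchanged.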

Other observations

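Outside the lists, 5 genes were named after their values were seen, which are no sample of any pathway, and none was called by edgeR. SLC7A5, which codes for the light chain of a transporter of large neutral amino acids, was at 231 and 185 CPM in TC shNT and at 433 and 570 CPM in TC shYEATS2. SLC3A2, its heavy chain, was at 144 and 106 CPM in TC shNT and at 230 and 299 CPM in TC shYEATS2. Neither passed by edgeR (adjusted p 0.210 and 0.205), and both were called with the GC trend removed (0.0302 and 0.0185). SLC1A4, SLC7A1 and MTHFD2, the gene of a mitochondrial folate enzyme, had log2 fold changes of 1.02, 0.86 and 0.93 (edgeR adjusted p 0.258, 0.243 and 0.260), and pairs that did not overlap. SLC1A4 was called with the GC trend removed (0.0497), and the 3 genes by DESeq2 (adjusted p 0.0263, 0.0275 and 0.0356). In YT shYEATS2 the 5 genes had log2 fold changes from -2.35 to -1.21.

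A further pair of genes, also named after their values were seen, was higher in TC shYEATS2 replicate 1 than in replicate 2. The aldo-keto reductase gene AKR1C3 was at 8.97 and 7.55 CPM in TC shNT and at 28.4 and 12.1 CPM in TC shYEATS2, and OSGIN1, an oxidative stress gene, at 36.2 and 19.9 CPM in TC shNT and at 127 and 50.1 CPM in TC shYEATS2. AKR1C genes are alike in sequence, so the value of AKR1C3 is uncertain. Neither gene passed by edgeR (adjusted p 0.305 and 0.294). DESeq2 called both (0.0348 and 0.0142), and OSGIN1 was called with the GC trend removed (0.0336).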
